A study of Mus musculus with 8 samples.

Results

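Itgal, Itgam and Itgax, which encode the alpha subunits of leukocyte integrins, were examined together with the matrix adhesion genes Cd44, Spp1 and Fn1, in cultured mouse macrophages. These 6 genes were taken by exact symbol from a table of 6287 genes, and all 6 were found and passed the minimum level for testing. They were chosen by their FPKM in these same libraries, which were already known to differ between the genotypes, so their differences are given as a description with no test. The cells were bone marrow derived macrophages, with 4 libraries from wild-type (WT) mice and 4 from PAD4-/- mice, which lack the arginine-citrullinating enzyme PAD4. All 8 titles carry the abbreviation con, which is not explained, and no other treatment, age, strain, sex or culture day is labelled for either group, nor how the PAD4 allele was made, and the samples are described as independent. The question named in the design text is which genes change when PAD4 is missing, in a study of macrophage migration in diabetic kidney disease.

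Integrins are pairs of an alpha and a beta subunit that span the membrane and tie the cytoskeleton to ligands outside the cell. The leukocyte integrins share the beta 2 subunit, encoded by Itgb2. Itgal encodes CD11a, the alpha subunit of LFA-1, which binds ICAM-1 on other cells. Itgam encodes CD11b of Mac-1, also called complement receptor 3, and Itgax encodes CD11c of complement receptor 4; both bind the complement fragment iC3b and fibrinogen among other ligands. Cd44 encodes the receptor for hyaluronan, and also binds osteopontin. Spp1 encodes osteopontin, a secreted phosphoprotein made in quantity by cultured macrophages, and Fn1 encodes fibronectin; both are ligands of integrins that read an Arg-Gly-Asp motif.

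Values are FPKM as the authors deposited them, that is, fragment numbers corrected for transcript length and sequencing amount, and can be set side by side between genes. Library sums ran from 381573 to 403848 FPKM, and read depth is unknown. How the genes of the table were chosen is not labelled, so the absence of a gene from it is not read as low expression. Shares and medians of all genes refer to the tested genes of that table. PAD4's own transcript was not analysed here, which leaves the genotype labels unchecked by it. Of 8 macrophage markers 6 were measured, with a summed level of 17420 to 17995 FPKM in WT and 18956 to 24800 in PAD4-/-, most of it Lyz2. Of these 6 markers 4 rose, against 21.1% of all genes tested, and 2 rose after median-of-ratios scaling, which centres the typical gene at no change, against 9.24% of all genes. Itgam and Itgax are also expressed by neutrophils and dendritic cells, of whose markers only 1 of 15 and 5 of 14 were measured, and none of these exceeded 1.13 FPKM in any library. Of 9 osteoclast markers 4 were measured, of which Dcstamp had the lowest level, at most 0.54 FPKM. Their summed level was 25.15 to 27.57 FPKM in WT and 18.29 to 21.08 in PAD4-/-, with Ctsk and Acp5 lower, Nfatc1 at 7.73 FPKM in WT and 9.04 in PAD4-/- on average (not called), and Dcstamp at 0.29 and 0.41, below the minimum for testing. The part of these shifts in the results below was not tested, and in bulk RNA fewer cells of a type cannot be told from less RNA per cell. Of 8 fibroblast markers 2 were measured, at no more than 0.70 FPKM, and of 8 monocyte markers 2, of which Treml4 rose on the deposited scale but not with median-of-ratios scaling.

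The WT and PAD4-/- libraries did not overlap for any of the 6 genes. Itgal, Itgam and Fn1 were higher in every PAD4-/- library than in any WT library, and Itgax, Cd44 and Spp1 were lower. Over all 5674 genes tested, groups did not overlap for 31.1%, being higher for 24.0% and lower for 7.12%. In the limma fit across these genes, which calls a gene at a Benjamini-Hochberg adjusted p below 0.05, all 6 were called (3 higher, 3 lower), against 27.7% of all genes (21.1% higher, 6.61% lower). With median-of-ratios scaling 5 of the 6 were called, against 20.3% of all genes (9.24% higher, 11.1% lower). This contrast chose the genes, so nothing is read from these counts.

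**Figure D1:**
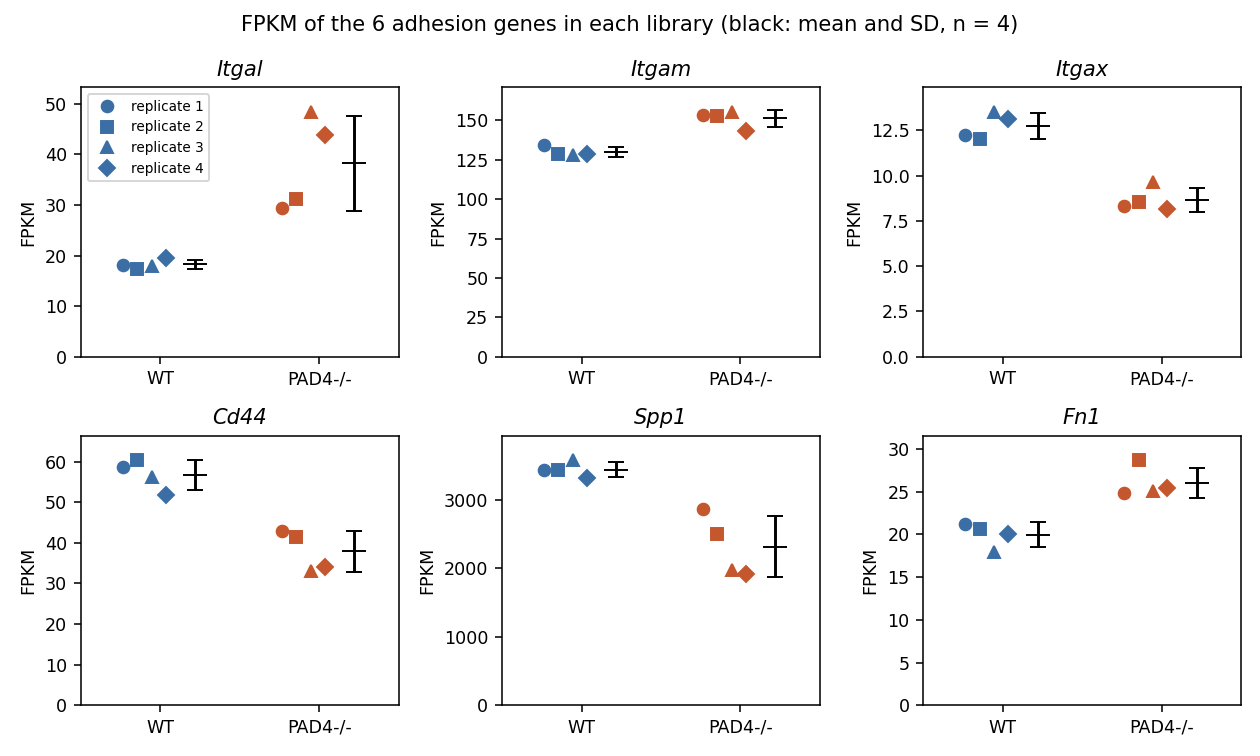
FPKM (vertical axis, from 0) of each gene in the 4 WT (blue) and 4 PAD4-/- (orange) libraries, with the replicate number shown by the symbol and the mean and SD in black. The groups are separate in all 6 panels, and Itgal, Cd44 and Spp1 lie farthest from WT in PAD4-/- replicates 3 and 4.

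Itgal had the largest difference of the 6. Its level was 18.13, 17.39, 17.97 and 19.56 FPKM in WT replicates 1 to 4, and 29.45, 31.13, 48.42 and 43.83 FPKM in PAD4-/- replicates 1 to 4. The WT libraries were close together, whereas PAD4-/- replicates 3 and 4 were well above replicates 1 and 2. The mean was 18.3 ± 0.922 FPKM (SD, n = 4) in WT and 38.2 ± 9.36 (SD, n = 4) in PAD4-/-, a ratio of 2.09, and the log2 difference was 1.00 (SE 0.150). Without PAD4-/- replicates 3 and 4 the log2 difference was 0.70. For Itgal, the authors' deposited table gives 0.97 on the log2 scale.

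Itgam was the most abundant of the 3 alpha subunit genes and had the smallest difference. It was at 134.44, 128.93, 128.01 and 128.41 FPKM in WT and at 153.4, 152.91, 155.44 and 142.94 FPKM in PAD4-/-. PAD4-/- replicates 3 and 4 did not stand apart from replicates 1 and 2 for this gene, and the lowest PAD4-/- library exceeded the highest WT library by little. The ratio of means was 1.16 and the log2 difference 0.22 (SE 0.041), against a median of 0.082 over all tested genes. With median-of-ratios scaling, which lowers that median to 0.0049, the log2 difference of Itgam was 0.13 and it was no longer called. The authors' deposited table gives a log2 fold change of 0.13.

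Itgax was lower in every PAD4-/- library than in any WT library. It was at 12.22, 12.03, 13.53 and 13.12 FPKM in WT and at 8.33, 8.53, 9.64 and 8.15 FPKM in PAD4-/-. PAD4-/- replicate 3, which had the most Itgal, also had the most Itgax of its group. The log2 difference was -0.51 (SE 0.062) and the ratio of means 0.681 (12.7 ± 0.717 against 8.66 ± 0.670 FPKM, SD, n = 4). The authors' deposited table gives a log2 fold change of -0.63. Transcripts of Itgax and of its neighbour Itgad, not analysed here, share an exact run of 188 bases, so fragments from that stretch could be divided between them by quantification settings that are not given here. Itgal, Itgam and Itgax share no run longer than 17 bases with each other.

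Itgal (chromosome 7, 127296139 to 127335137), Itgam (128062640 to 128118491) and Itgax (128129526 to 128150657) lie on chromosome 7, the last pair next to each other, in the RefSeq annotation of GRCm38.p6. The 300 bases around the start of Itgam and Itgax are shown because these adjacent genes differed from WT in opposite directions. They are credited to RefSeq, GRCm38.p6, are on the plus strand, and span chr7:128062390-128062689 and chr7:128129300-128129599. Capitals mark matches on either strand to GAGGAA (core motif of the myeloid factor PU.1), TGTGGT (RUNX), TGANTCA (AP-1) and GGGCGG (SP1); CACGTG (the E-box bound by MITF) was also searched, and no match overlapped another.
Itgam: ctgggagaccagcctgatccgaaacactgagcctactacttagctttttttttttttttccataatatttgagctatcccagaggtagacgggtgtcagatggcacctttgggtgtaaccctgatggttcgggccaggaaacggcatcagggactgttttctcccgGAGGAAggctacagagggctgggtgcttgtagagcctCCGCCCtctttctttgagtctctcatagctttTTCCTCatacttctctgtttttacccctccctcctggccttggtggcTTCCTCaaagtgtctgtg
Itgax: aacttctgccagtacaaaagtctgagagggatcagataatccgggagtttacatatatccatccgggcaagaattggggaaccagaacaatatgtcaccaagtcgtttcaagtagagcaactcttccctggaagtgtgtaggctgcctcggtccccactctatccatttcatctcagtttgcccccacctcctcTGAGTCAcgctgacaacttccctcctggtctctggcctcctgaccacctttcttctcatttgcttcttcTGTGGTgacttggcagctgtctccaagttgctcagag
The Itgam window held 3 matches to the PU.1 core, on the sense strand at -84 from the start and on the opposite strand at -15 and 33, and 1 to the SP1 motif on the opposite strand at -47. The Itgax window, whose positions count from the promoter table's own start at 128129550, held the AP-1 motif at -56 and the RUNX motif at 14, and no match to the others. Of all 32851 windows in the table, 28.3% hold the PU.1 core, 35.7% the SP1, 16.8% the RUNX, 7.81% the AP-1 and 7.15% the E-box motif; a match describes the letters present and is not a site. Windows were found for 4 of the 6 genes, and those of Itgal and Fn1 are not shown.

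The shares of the 3 alpha subunit genes, which no factor common to a library can move, differed between the groups for Itgal and Itgax. Of their summed FPKM, Itgal made up 11.002%, 10.98%, 11.3% and 12.1% in WT and 15.4%, 16.2%, 22.7% and 22.5% in PAD4-/-. Itgax made up 7.42%, 7.60%, 8.48% and 8.14% in WT and 4.36%, 4.43%, 4.52% and 4.18% in PAD4-/-. The groups did not overlap for either share. Itgal and Itgax were chosen with this contrast known and differ in opposite directions, so nothing is read from that separation. The Itgax share had the smaller spread in PAD4-/- (SD 0.142 percentage points, against 3.94 for Itgal). Itgam made up 81.6%, 81.4%, 80.3% and 79.7% in WT and 80.2%, 79.4%, 72.8% and 73.3% in PAD4-/-, so that its groups overlapped. The ratio of Itgal to Itgax went from 1.44 ± 0.0753 (SD, n = 4) to 4.40 ± 0.941, and that of Itgam to Itgax from 10.2 ± 0.735 to 17.5 ± 0.985.

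**Figure D2:**
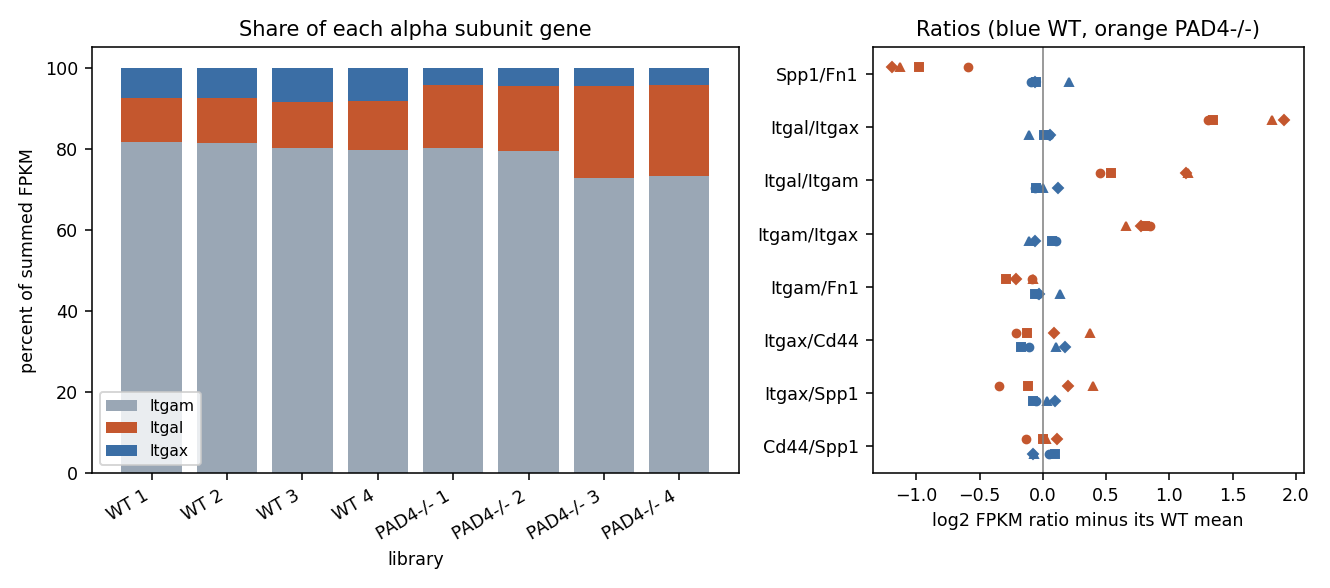
Left, the percent of the summed FPKM of Itgal, Itgam and Itgax held by each gene in each library; right, log2 ratios between genes in each library minus their WT mean, with WT in blue, PAD4-/- in orange and the replicate number by symbol. The Itgal share lies at 15.4% to 22.7% in PAD4-/- against 10.98% to 12.1% in WT, while the Cd44 to Spp1 ratios of both groups lie together near 0.

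Cd44 and Spp1 were both lower, with nearly equal ratios of means. Cd44 was at 58.67, 60.32, 56.17 and 51.76 FPKM in WT and at 42.92, 41.36, 33.12 and 34.16 FPKM in PAD4-/-. Spp1 was at 3439.88, 3429.67, 3575.31 and 3321.72 FPKM in WT and at 2859.88, 2506.17, 1979.87 and 1921.6 FPKM in PAD4-/-. Both were lowest in PAD4-/- replicates 3 and 4, and Spp1 was the gene with the 10th highest mean of the 6287 in the table. The ratios of means were 0.668 for Cd44 and 0.673 for Spp1. The log2 differences were -0.58 (SE 0.087) and -0.59 (SE 0.117). Without PAD4-/- replicates 3 and 4 the log2 differences were -0.42 for Cd44 and -0.36 for Spp1. The authors' deposited table gives log2 fold changes of -0.67 and -0.65.

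The log2 ratio of Cd44 to Spp1 was -5.92 ± 0.087 (SD, n = 4) in WT and -5.92 ± 0.101 (SD, n = 4) in PAD4-/-, and its values overlapped between the groups. It ranged from -6.00 to -5.83 in WT and from -6.06 to -5.81 in PAD4-/-. Ratios of Itgax to Cd44 and to Spp1 also overlapped between the groups, but with SDs of 0.260 and 0.329 on the log2 scale in PAD4-/-. Of the 15 pairs among the 6 genes, these were the 3 whose ratios overlapped. Each gene was already separate between the groups, so ratios of a higher to a lower gene could not overlap. Only pairs that differed from WT in the same direction could, and nothing is read from the count. A shared ratio of this kind describes 8 libraries and says nothing of shared control.

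Fn1 was higher, evenly so in PAD4-/- replicates 1, 3 and 4. It was at 21.21, 20.61, 17.89 and 20.09 FPKM in WT and at 24.89, 28.65, 25.08 and 25.38 FPKM in PAD4-/-. The ratio of means was 1.30 and the log2 difference 0.37 (SE 0.064), or 0.28 with median-of-ratios scaling. Fn1 and Spp1, both ligands of Arg-Gly-Asp-binding integrins, thus differed from WT in opposite directions. The ratio of Spp1 to Fn1 was 162, 166, 199.9 and 165 in WT and 115, 87.5, 78.9 and 75.7 in PAD4-/-. The authors' deposited table gives a log2 fold change of 0.30 for Fn1.

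The coding stretches around this motif are shown because it is what the integrin ligands have in common, with the 3 codons for arginine, glycine and aspartate in capitals. They were read from GENCODE M21 transcripts (GRCm38) by translating the longest complete coding sequence, in the sense direction of the gene. The Spp1 stretch is at chr5:104439454-104439516 (plus strand, 1 exon, codon 145 of 295). The Fn1 stretches are at chr1:71606719-71606781 (minus strand, codon 1614 of 2477), followed by a serine codon as in Spp1, and at chr1:71597416-71597478 (minus strand, codon 2181).
Spp1: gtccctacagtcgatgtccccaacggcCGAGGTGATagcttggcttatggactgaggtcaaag
Fn1, codon 1614: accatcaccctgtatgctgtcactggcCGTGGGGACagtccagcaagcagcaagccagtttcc
Fn1, codon 2181: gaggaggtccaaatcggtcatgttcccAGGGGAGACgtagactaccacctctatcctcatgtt
The Spp1 site was in 4 of 4 complete coding transcripts, and the Fn1 sites in 7 and 5 of 8. The FPKM values are per gene, so isoforms of Fn1, or of Cd44 with its 8 protein-coding transcripts, are not resolved.

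The first of 2 Spp1 promoter windows (GRCm38.p6, RefSeq, plus strand, chr5:104434861-104435160) is shown with the same marking, since Spp1 was the most abundant of the 6 genes.
Spp1: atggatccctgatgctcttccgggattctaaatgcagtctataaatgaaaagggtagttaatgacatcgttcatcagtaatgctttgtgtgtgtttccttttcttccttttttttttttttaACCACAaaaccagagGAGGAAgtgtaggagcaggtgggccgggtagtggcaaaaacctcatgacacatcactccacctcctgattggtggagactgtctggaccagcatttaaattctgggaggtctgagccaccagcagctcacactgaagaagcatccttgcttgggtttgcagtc
This window held the PU.1 core at -113 and the RUNX motif on the opposite strand at -128, and no match to the others. The second Spp1 window (chr5:104435942-104436241), which is not shown, held no match to any of the motifs. The Cd44 window held 2 matches to the PU.1 core and 1 to the SP1 motif.

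The 6 genes fell into separate patterns over the PAD4-/- libraries. Differences from the WT mean of log2(FPKM + 1) in PAD4-/- replicates 1 to 4 were 0.66, 0.74, 1.36 and 1.22 for Itgal. For Cd44 they were -0.39, -0.44, -0.76 and -0.71, and for Spp1 -0.27, -0.46, -0.80 and -0.84. These 3 genes departed most in replicates 3 and 4. For Itgam they were 0.24, 0.23, 0.26 and 0.14, for Itgax -0.56, -0.52, -0.37 and -0.58, and for Fn1 0.31, 0.50, 0.32 and 0.34, with no such order. The median over all tested genes was 0.053, 0.063, 0.11 and 0.095 in the same libraries. Over all tested genes the median absolute log2 gap was 0.084 between PAD4-/- replicates 1 and 2 and 0.064 between replicates 3 and 4. Between replicates 1 or 2 and replicates 3 or 4 it was 0.120 to 0.148. The split of these libraries is thus not particular to Itgal, Cd44 and Spp1. The coefficient of variation was 2.32% to 7.26% for the 6 genes in WT. In PAD4-/- it was 24.5% for Itgal, 19.3% for Spp1 and 13.1% for Cd44, and 3.70% to 7.73% for the others.

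**Figure D3:**
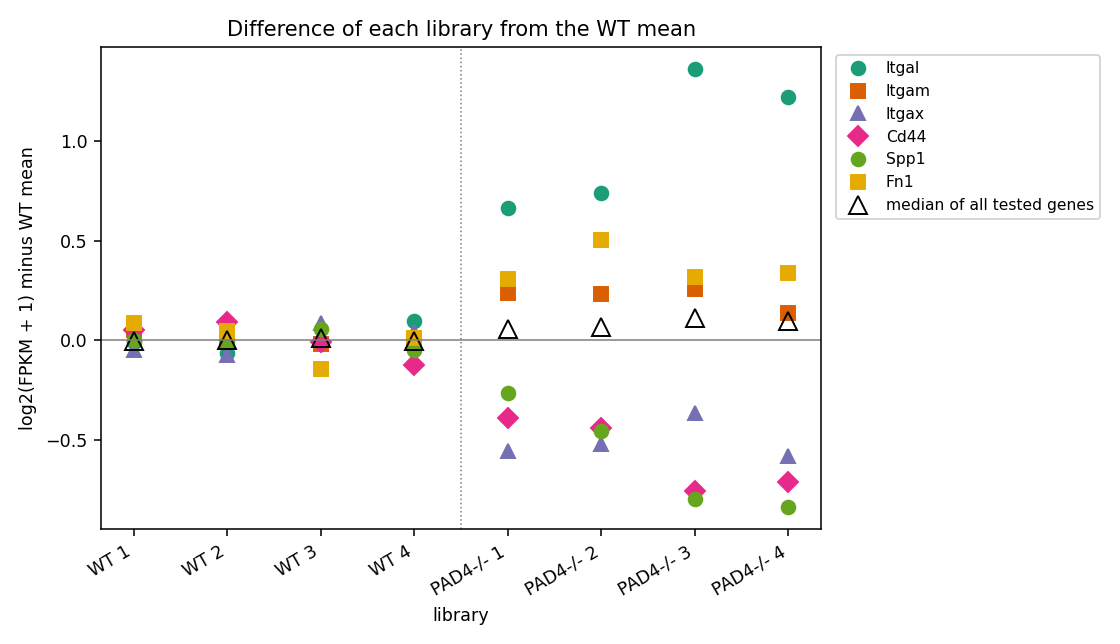
Log2(FPKM + 1) minus the WT mean (vertical axis) of the 6 genes in each of the 8 libraries, with the median of all tested genes as open triangles. Itgal lies between 0.66 and 1.36 in PAD4-/- with its highest values in replicates 3 and 4, whereas Itgam stays between 0.14 and 0.26.

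Among the other integrin subunit genes none passed the test. Of 24 listed, 6 were measured and 5 tested with limma. Of these 0 were called, against 27.7% of all genes, and 2 were higher at an unadjusted p below 0.05. The median log2 difference was 0.11, against 0.082 for all genes. Itgb2, Itgad, Itgb3 and Itgb5 were not analysed here. Itgb1, the beta subunit of the fibronectin receptors, was at 320 ± 6.54 FPKM in WT and 311 ± 21.2 in PAD4-/- (SD, n = 4; adjusted p = 0.567 in limma). Itga5, which with Itgb1 forms the main fibronectin receptor, was at 86.2 ± 4.37 and 90.0 ± 5.56 FPKM (adjusted p = 0.411 in limma), and Itgav, of the receptors for osteopontin and vitronectin, at 46.3 ± 1.80 and 50.7 ± 2.66 (adjusted p = 0.0701). Itgav passed without PAD4-/- replicates 3 and 4 (adjusted p = 0.0371). Itga9, whose product also binds osteopontin, was at 2.40 ± 0.225 and 2.66 ± 0.184 FPKM (adjusted p = 0.239 in limma).

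Itga4, whose product binds VCAM-1 and fibronectin with Itgb1, was at 7.66, 7.74, 6.63 and 6.19 FPKM in WT and at 8.16, 7.65, 14.12 and 12.25 FPKM in PAD4-/-. The groups overlapped, with PAD4-/- replicates 3 and 4 above all others. These libraries also stood apart from replicates 1 and 2 over all tested genes. Itga4 did not pass (log2 difference 0.48, adjusted p = 0.0713 in limma) but did without PAD4-/- replicate 1 or 2 (adjusted p = 0.0377 and 0.0281).

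Over 6 lists of related genes, 193 genes were listed, 90 measured and 81 tested. Of these 16 rose and 11 fell, so that 33.3% were called against 27.7% of all genes; median-of-ratios scaling gave 8 and 14. The number that rose was 9 without WT replicate 1, 2 or 3, 10 without PAD4-/- replicate 3 and 26 without PAD4-/- replicate 1, and the number that fell was 7 without WT replicate 2 or 3 or PAD4-/- replicate 3. The median log2 difference of the 81 genes was 0.076 (0.082 for all genes).

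Of 10 tested counter-receptors and lateral partners of integrins, 1 rose and 2 fell, against 21.1% and 6.61% of all genes. Icam1, the ligand of LFA-1, rose from 153 ± 6.61 to 246 ± 60.3 FPKM (SD, n = 4; adjusted p = 0.0178 in limma). Its levels were 193.22, 193.69, 300.96 and 294.76 FPKM in PAD4-/- replicates 1 to 4, so replicates 3 and 4 were highest. Over all tested genes these libraries also stood apart from replicates 1 and 2, so this order is not particular to Icam1 and Itgal. Plaur, the urokinase receptor, which associates with integrins, fell from 48.5 ± 0.809 to 28.2 ± 7.11 FPKM (adjusted p = 0.00844). Both kept their call in all 18 alternatives. Cd9, a tetraspanin, fell from 572 ± 9.09 to 513 ± 28.7 FPKM (adjusted p = 0.0277), a call lost without WT replicates 1 to 4 in turn (adjusted p = 0.0569, 0.0786, 0.0764 and 0.0546) and without PAD4-/- replicate 3 or 4 (0.0798 and 0.0620). The median log2 difference of the list was -0.00065, or -0.086 with median-of-ratios scaling.

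Of 27 tested genes of integrin activation and adhesion complexes, 6 rose and 4 fell, against 21.1% and 6.61% of all genes. Apbb1ip, which encodes RIAM, the adaptor that brings talin to integrins, rose from 89.9 ± 4.86 to 115 ± 3.16 FPKM (log2 difference 0.36, adjusted p = 0.00182 in limma). The genes that fell with the smallest adjusted p encode the kinase Src and the focal adhesion proteins zyxin and vinculin. Zyx fell from 49.8 ± 1.58 to 39.0 ± 3.32 FPKM (adjusted p = 0.00457), Src from 3.85 ± 0.399 to 2.66 ± 0.296 (0.00757) and Vcl from 7.12 ± 0.392 to 5.51 ± 0.582 (0.0113). These 4 genes kept their call in every alternative in which they were tested. Rap1a and Rap1b, the small GTPases that drive integrin activation, did not pass (log2 differences -0.12 and -0.02; adjusted p = 0.284 and 0.756); they were named after their values were seen. The number that rose was 1 to 3 without WT replicates 1 to 4 in turn, 2 without PAD4-/- replicate 3 and 1 with median-of-ratios scaling. The median of the list was 0.044, and -0.041 with that scaling.

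Of 10 tested genes of CD44 ligands, shedding and cytoskeletal links, 4 rose and 1 fell. Over all tested genes 21.1% rose and 6.61% fell. Srgn, whose product serglycin is a proteoglycan ligand of CD44, rose from 84.4 ± 3.97 to 125 ± 23.0 FPKM (adjusted p = 0.0105 in limma). Ezr and Rdx, which encode the actin linkers ezrin and radixin, rose from 103 ± 9.06 to 128 ± 9.55 and from 40.1 ± 1.36 to 46.1 ± 1.499 FPKM (adjusted p = 0.0135 and 0.0105), and the call of Rdx was lost with median-of-ratios scaling (0.0878). Msn, the third linker of that family and the most abundant, was at log2 difference -0.07 (adjusted p = 0.345). Adam17, a sheddase, rose from 120 ± 3.48 to 146 ± 13.7 FPKM (adjusted p = 0.0134). The gene that fell was Hyal1, a hyaluronidase (log2 difference -0.46, adjusted p = 0.0210); Hyal1 and Msn were named after their values were seen, and no gene of the list fell without WT replicate 1, 2 or 3 or PAD4-/- replicate 3. The list's median was 0.14, or 0.057 with median-of-ratios scaling.

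Of 12 tested matrix proteins and modifying enzymes, 1 rose and 2 fell, against 21.1% and 6.61% of all genes. Emilin1, an elastic fibre glycoprotein, rose from 10.97 ± 0.756 to 13.9 ± 1.34 FPKM (adjusted p = 0.0141 in limma). Tgm2, a transglutaminase that cross-links osteopontin and fibronectin, fell from 74.6 ± 3.003 to 62.7 ± 3.16 FPKM (adjusted p = 0.00777). Acp5, a phosphatase that acts on osteopontin, fell from 7.50 ± 1.07 to 5.33 ± 0.155 FPKM (adjusted p = 0.00973). The number that rose was 3 without PAD4-/- replicate 1. The median of the list was 0.045, and -0.030 with median-of-ratios scaling.

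**Figure D4:**
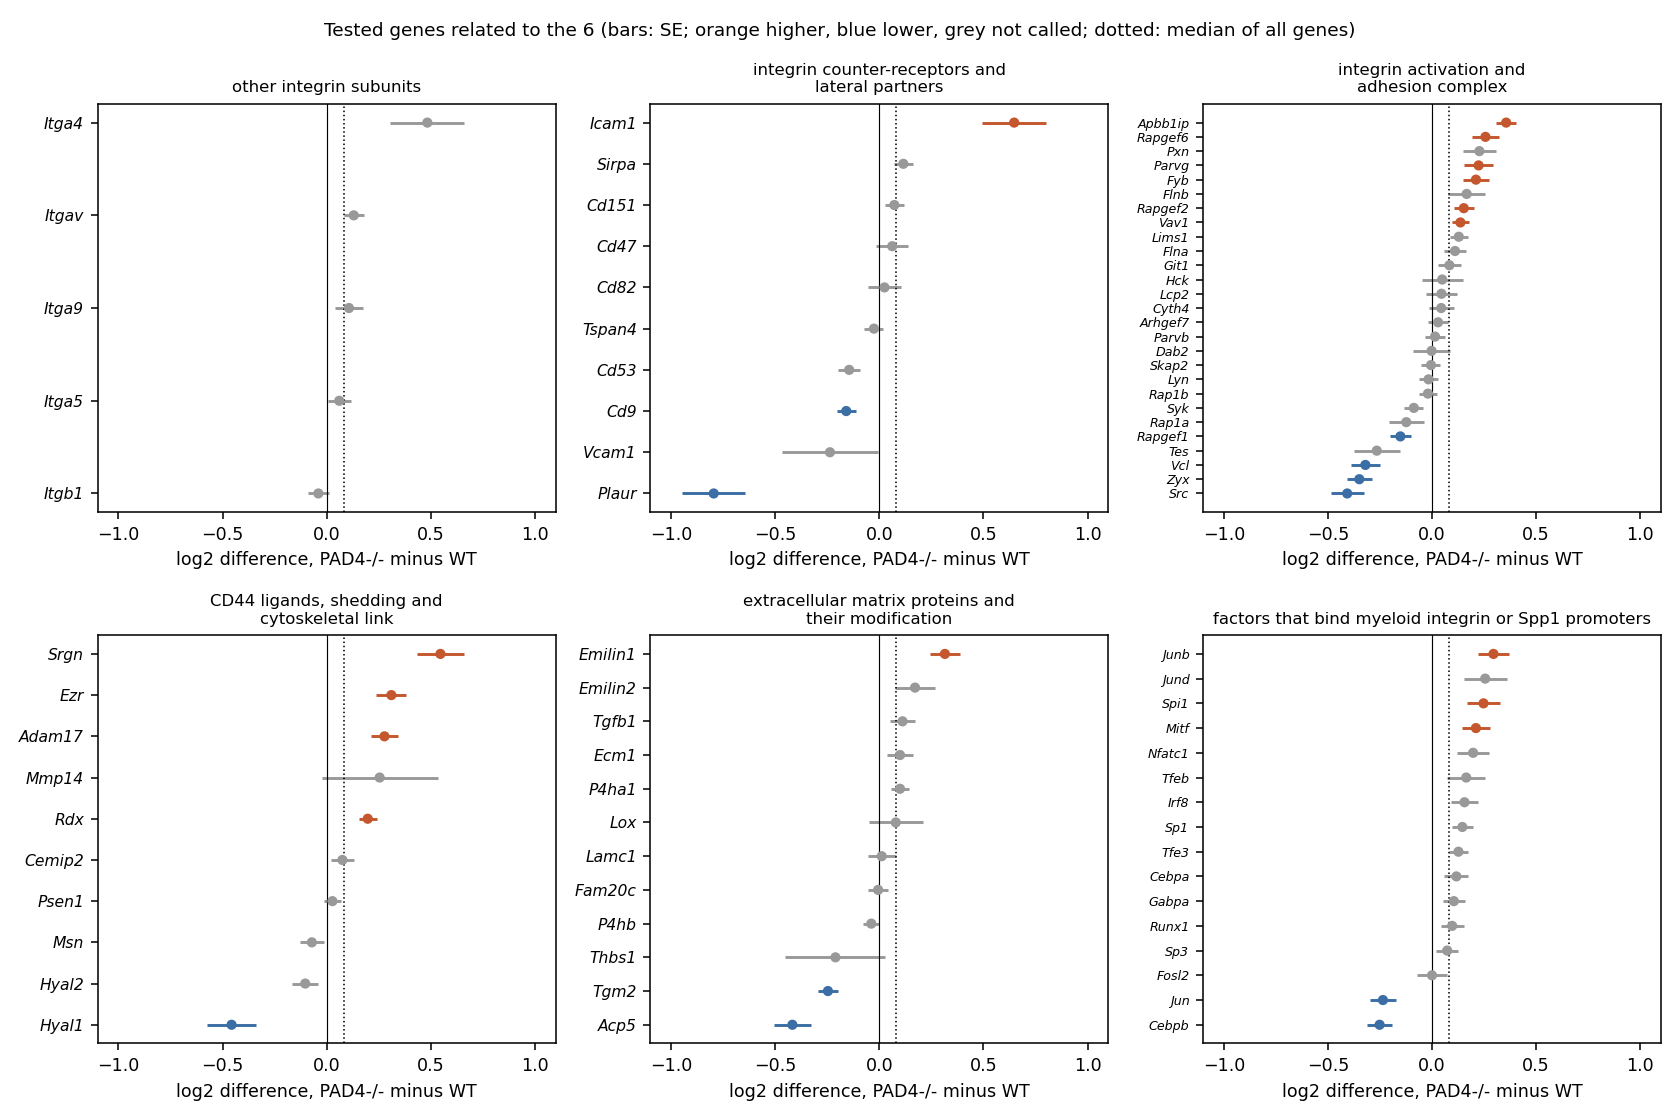
Log2 difference, PAD4-/- minus WT (horizontal axis), with SE bars, for tested genes of the 6 related lists, with 1 gene not shown; orange rose, blue fell and grey was not called, and the dotted line is the median of all tested genes, 0.082. Icam1 and Srgn lie farthest to the right among the called genes shown and Plaur farthest to the left.

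Of 17 tested transcription factors that bind promoters of myeloid integrins or Spp1, 4 rose and 2 fell. Over all tested genes 21.1% rose and 6.61% fell. Of the 4 AP-1 genes tested, Junb rose from 79.3 ± 3.55 to 97.9 ± 10.5 FPKM (adjusted p = 0.0166 in limma) and Jun fell from 69.3 ± 5.04 to 58.7 ± 3.46 (0.01999), while Jund and Fosl2 did not pass (log2 differences 0.26 and -0.00031; adjusted p = 0.0874 and 0.998; both named after their values were seen). Cebpb fell from 138 ± 7.24 to 116 ± 8.53 FPKM (0.0151). The calls were lost without WT replicate 2 for Cebpb (adjusted p = 0.0512), WT replicate 2 or 3 for Junb (0.0528 and 0.0519), and WT replicate 3 or PAD4-/- replicate 3 or 4 for Jun (0.0599, 0.0511 and 0.0531). Spi1, which encodes PU.1 and was named after its value was seen, rose on the deposited scale (log2 difference 0.25, adjusted p = 0.0449) but not with median-of-ratios scaling. The number that rose was 1 without WT replicate 2 or 3, 2 without WT replicate 1 or PAD4-/- replicate 3 or 4, and 9 without PAD4-/- replicate 1. The number that fell was 1 without WT replicate 2 or 3 or PAD4-/- replicate 3 or 4. The list's median was 0.15, or 0.063 with median-of-ratios scaling.

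On chromosome 7, several genes around Itgal also rose, each by less than the difference of Itgal. Of 19 tested genes whose midpoint lies within 500000 bases of that of Itgal, 10 rose and 0 fell, which is 52.6% higher against 21.1% of all genes; at an unadjusted p below 0.05 the limma counts were 15 higher and 0 lower. Their log2 differences ran from -0.17 to 0.35, with 18 of 19 above 0 and a median of 0.25 (0.082 for all genes). The shares of all tested genes at that unadjusted level and above 0 were not taken. The median of all genes was itself above 0, so nothing is read from the 15 or the 18. Fbrs rose from 30.7 ± 0.942 to 39.6 ± 3.45 FPKM (adjusted p = 0.00517) and Srcap, a chromatin remodeller, from 15.3 ± 0.383 to 18.6 ± 0.868 (0.00534). Median-of-ratios scaling left 5 higher and 0 lower, against 9.24% of all genes higher and 11.1% lower. Without WT replicate 1, 2 or 3 or PAD4-/- replicate 3, 5 rose, and without PAD4-/- replicate 4, 6 rose. Over all tested genes the number that rose also fell in these settings, from 1195 to between 647 and 731. Within 250000 bases 4 of 8 rose.

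Around Itgam 2 of 12 tested genes rose and 0 fell, against 21.1% and 6.61% of all genes. At an unadjusted p below 0.05 the limma counts were 4 and 0, and the median was 0.13. The 2 that rose were the same pair as around Itgax. They were Fbxl19, from 9.07 ± 0.256 to 10.96 ± 0.821 FPKM (adjusted p = 0.0133), and Setd1a, from 28.9 ± 1.56 to 32.2 ± 0.987 (0.0406), both also within the window of Itgal. The call of Setd1a was lost without WT replicate 1, 2 or 3 (adjusted p = 0.103, 0.105 and 0.108) or PAD4-/- replicate 2, 3 or 4 (0.0794, 0.0695 and 0.0622), and with median-of-ratios scaling. Within 250000 bases of Itgam and of Itgax, 0 of 7 and 0 of 4 tested genes passed in limma, with 1 and 0 at an unadjusted p below 0.05. No tested gene near Itgax fell. Near Spp1, 0 of 3 tested genes passed (1 at an unadjusted p below 0.05), and no gene near Cd44 or Fn1 was tested.

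**Figure D5:**
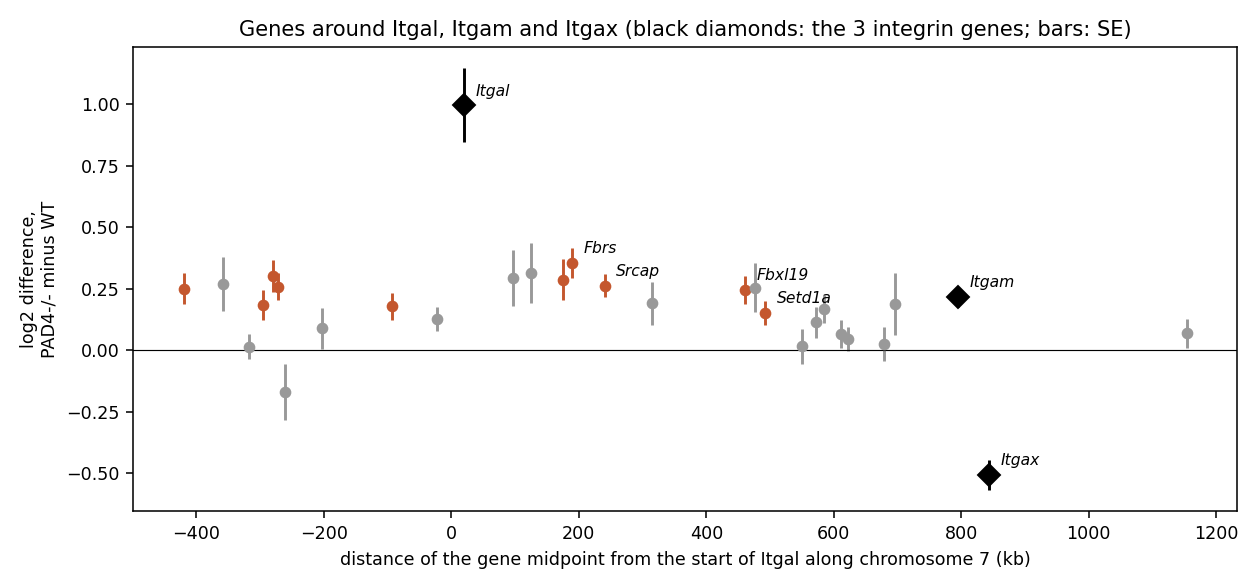
Log2 difference, PAD4-/- minus WT (vertical axis), with SE bars, against the distance of each gene's midpoint from the start of Itgal along chromosome 7 in kb; orange rose, grey was not called, and black diamonds are Itgal, Itgam and Itgax. Of the 19 tested genes around Itgal 18 lie above 0, and Itgax at -0.51 is the lowest point. The median of all tested genes, 0.082, is also above 0.

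The genes most alike in profile were sought by the root mean square difference of log2(FPKM + 1), each gene relative to its WT mean, over the 8 libraries, which share the genotype contrast. The 3 nearest to Itgal were Igfbp4 (0.081), Lpcat2 (0.10) and Ifitm3 (0.12), an insulin-like growth factor binding protein, a lysophospholipid acyltransferase and an interferon-induced membrane protein. Their ratios of means were 1.95, 2.25 and 2.17. Likeness to a gene chosen by this contrast fixes the direction of such genes, so no test is given for them. Those nearest to Itgam were Exoc4, Cnot1 and Rnf168 (0.025 to 0.028). Nearest to Itgax were Sh2d3c (0.066), Pde7b (0.079) and Prnp (0.095), and Prnp, the prion protein gene, was at 25.9 ± 0.619 FPKM in WT and 17.8 ± 0.793 in PAD4-/-.

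Nearest to Cd44 were Tfrc, Sla and Met (0.050, 0.057 and 0.057). Tfrc, the transferrin receptor gene, was at 144 ± 8.78 and 96.4 ± 11.7 FPKM, a ratio of 0.670. Nearest to Spp1 were the histone gene H2bc4, Cipc and the lipoprotein lipase gene Lpl (0.046, 0.046 and 0.049). Lpl was at 1117 ± 62.5 and 767 ± 177 FPKM. Nearest to Fn1 were Zfp362 (0.056), Acvrl1, a receptor of the transforming growth factor beta family (0.067), and Sash1 (0.069). None of these 18 genes belongs to a related list. Those lists hold only 81 of the 5674 tested genes, so nothing is read from this.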

How the data were processed

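RNA-seq was done on 8 libraries, 4 per genotype, grouped by sample title. Libraries followed a BGISEQ protocol, per the labels' protocols. The authors deposited 1 FPKM value per gene and library, to 2 decimals, with HISAT, Bowtie2, RSEM and GRCm38 named per the submitters' processing notes; no version or setting was found. The authors' deposited log2 fold changes were used only where named, and their deposited q-values, from a test that is not named, were not used. The values used are FPKM and hold no read numbers, so no depth or counting interval is given.

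A minimum mean of 1 FPKM left 5674 genes to test and 613 out. The test was made with limma 3.58.1 (R 4.3.3) on log2(FPKM + 1), as a two-sided moderated test with trend and robust settings, adjusted by Benjamini-Hochberg over all genes tested. Log2 differences are on that scale, which understates changes of low genes. The labels name no animal or culture per library, so p-values rest on spread among libraries that may be technical in part. On simulated data with the gene levels and spreads of this comparison (5674 genes, 200 of them changed) 88.5% were recovered at a log2 change of 0.5 and 99% at 1. False calls numbered 5 and 7. The simulated noise was independent between genes, so differences that libraries share over many genes are not covered.

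The 6 genes, the 6 related lists and 8 marker lists, and the tests were chosen with earlier results of these data known. Named genes were the 6, their partner subunits and ligands, up to 4 called genes per related list and 2 per neighbourhood by smallest adjusted p, and the 3 nearest profiles of each, without predicted or clone-named genes; exceptions are marked. Markers of T, NK and B cells were not analysed here, and 1 gene named by this rule is counted in its list but not reported here. RefSeq (GRCm38.p6) matched 6271 gene identifiers. Alternatives changed the pseudocount, filter, scaling (TPM over the listed genes, median-of-ratios, quantile), empirical Bayes settings, a replicate block and the libraries left out.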

Additional observations from a re-analysis of the deposited data

Results flagged for a closer look

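Of 108 groups of 4 libraries examined, 7 had a library set apart from the other 3 by more than Dixon's 95% critical value, which chance gives in about 1 of 20 groups. Itgam was at 134.44 FPKM in WT replicate 1, against 128.01 to 128.93 in the others, and Fn1 was at 28.65 in PAD4-/- replicate 2, against 24.89 to 25.38. In that same PAD4-/- library Itga5 was at 98.34 FPKM, against 87.12 to 87.37, and Src at 3.10 FPKM, against 2.47 to 2.53. In WT replicate 4 Acp5 was at 5.91 FPKM, against 7.92 to 8.24, and Itgav at 43.58, against 46.95 to 47.42. Exoc4 was at 29.24 FPKM in WT replicate 1, against 27.06 to 27.35.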

How the results depend on the processing

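Over 18 alternatives the log2 differences of the 6 genes, given as a description since this contrast chose them, ran from 0.70 to 1.11 for Itgal, 0.13 to 0.24 for Itgam, -0.61 to -0.48 for Itgax, -0.66 to -0.42 for Cd44, -0.70 to -0.34 for Spp1 and 0.28 to 0.41 for Fn1. By more than the replicate SD, log2 differences moved to 0.13 for Itgam with median-of-ratios scaling, to -0.61 for Itgax and -0.34 for Spp1 with quantile normalization, and to 0.70, -0.42 and -0.36 for Itgal, Cd44 and Spp1 without PAD4-/- replicates 3 and 4. Of all tested genes 1195 were higher and 375 lower; median-of-ratios scaling gave 524 and 628, quantile normalization gave 488 higher, and 662 were higher without PAD4-/- replicates 3 and 4. Leaving out 1 library gave 647 to 1682 higher and 235 to 544 lower. The 16 related genes that rose became 8 and 9 with median-of-ratios scaling and quantile normalization and 9 to 26 when 1 library was left out, and the 11 that fell became 7 to 12. The 10 higher neighbours of Itgal became 5 and 4 with those scalings, 5 without PAD4-/- replicates 3 and 4, 4 in the smaller window and 5 to 14 when 1 library was left out; the cause was not tested. The replicate numbers pair nothing in the labels, and deviations of same-numbered libraries correlated at -0.14 to -0.032 over genes; with the replicate block 1031 genes were higher and 334 lower, and of the named genes Cd9 (adjusted p = 0.0592), Jun (0.0527) and Setd1a (0.0750) lost their call. Without PAD4-/- replicates 3 and 4 the call was lost for Cd9 (adjusted p = 0.125), Jun (0.0871), Emilin1, Ezr, Fbxl19, Junb and Cebpb (0.0514 to 0.0634), and with quantile normalization for Fbxl19 (0.0714), Rdx (0.0553) and Setd1a (0.449). Uncalled genes that changed sign without a call were counted as unmoved. Depth is unknown, so what it limits cannot be stated.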
